A study of Mus musculus with 6 samples.

Results

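Of 60298 open chromatin regions on chromosomes 1 to 19, 6838 lay far from every protein-coding gene. A region was kept when every peak summit in it was more than 100 kb from the nearest 5′ end of a protein-coding gene and outside all protein-coding gene bodies, in the GENCODE mouse annotation of GRCm39. Regions were built by merging the peaks of 6 ATAC-seq libraries that shared 1 bp. ATAC-seq marks open DNA by where the Tn5 transposase can insert sequencing adapters. The libraries came from white blood cells in the peripheral blood of male C57BL/6j mice after lysis of the red cells. Mice of 1 group stayed in a hypobaric chamber that simulated high altitude and were then moved to normal oxygen, the phase named high-altitude de-acclimatization (HADA), and the other group was the control. Each group had 3 libraries. The labels and the methods of the study name the cells leukocytes. Its results text calls them mononuclear cells, a preparation that would leave out most neutrophils. The labels are followed here. The cells were not sorted, so each library is a mixture of leukocytes, and fewer cells of a type and less open chromatin per cell cannot be told apart. Whether a library came from 1 animal or several is not given in the sources used here, so the p-values measure only the spread between these libraries.

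Most regulatory DNA of blood cells lies outside promoters, and part of it lies in gene deserts, long stretches with no protein-coding gene. Deserts next to genes of transcription factors such as Foxo1, Myc and Ebf1 hold enhancers that act over long distances and that are open in some cell types and closed in others. Deserts also hold much repeated DNA, including satellite arrays near centromeres and mobile elements. A read from such sequence can match many places in the genome, so a peak there need not mark the place from which the read came.

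The libraries held 32533 to 39769 peaks on these chromosomes in the control group and 42500 to 44102 in the HADA group. The genome-wide background pileup, which follows depth, was 1.69 to 2.05 reads in control against 1.99 to 2.34 reads in HADA libraries and overlapped between the groups. Marker genes of the labelled cells were open, and their balance differed between the groups. The summed promoter pileup of 6 B cell markers, in units of the library's median shared region, was 4.76, 3.8 and 0.78 in controls against 11.1, 11.5 and 10.9 in HADA. For 7 neutrophil markers it was 4.02, 3.27 and 10.5 in controls against 2.05, 1.59 and 1.39 in HADA. The summed level of 6 T cell markers was 1.10 to 1.71 in control against 2.09 to 2.51 in HADA libraries, with Cd28 at 0 in all 6. Cd3d and Cd3g had the same value in each library. For 5 monocyte markers it was 1.38 to 1.56 against 0.783 to 0.848, with Csf1r at 0 and Ccr2 overlapping between the groups. For 5 NK cell markers it was 0.60 to 1.19 against 1.20 to 1.67. Only Klrb1c among them was higher in every HADA library. Ncr1 had a peak in control 1 and control 2 alone, and Klrd1, Nkg7 and Eomes overlapped. For 6 eosinophil or basophil markers it was 0.80 to 1.32 against 1.95 to 1.98, with Ccr3, Gata2 and Fcer1a at 0. Of the other 3, Il5ra and Prg2 were higher in every HADA library, and Siglecf was lower (0.678 to 0.8 in control against 0.41 to 0.564 in HADA). For 6 erythroid or platelet markers it was 2.58 to 2.93 against 4.10 to 4.83, with Hba-a1, Pf4 and Gp9 at 0. Klf1 alone made up 2.16 to 2.46 of this in control and 3.29 to 3.82 in HADA libraries. Control 3 stood apart by the lowest B cell and the highest neutrophil signal, and control 2 by the largest share of repeated peaks, as given below.

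The sequences of 10 members are shown first, because the results turn on single-copy stretches, most of those shown next to genes of blood cells, and on repeated arrays. Of all 2936 low-repeat members, 2558 lay next to a gene in none of the gene lists used below. Each covers the bases within 100 bp of the summit, read from the GRCm39 genome on the plus strand. In the single-copy members, capitals mark matches to the motifs searched (AP1 as TGACTCA, with G also allowed at the middle base, CEBP as TTGCACAA, TTGCATAA, TTGCGCAA or TTGCGTAA, GATA as AGATAA, the E-box as CAGCTG, IRF as GAAA repeated after a spacing of 2 bases, OCT as ATTTGCAT, PU.1 as GAGGAAGT and TCF7 as CTTTGAT, on both strands). The E-box reads the same on both strands. RUNX (TGTGGTTT), ETS (ACCGGAAGT), EBF (TCCC and, after 2 bases, GGGA) and CTCF, searched in the same way, had no match in the single-copy windows. The ETS and PU.1 motifs share their core and can overlap.
Foxo1 member with AP1 and 2 E-boxes, chr3:52351471-52351671: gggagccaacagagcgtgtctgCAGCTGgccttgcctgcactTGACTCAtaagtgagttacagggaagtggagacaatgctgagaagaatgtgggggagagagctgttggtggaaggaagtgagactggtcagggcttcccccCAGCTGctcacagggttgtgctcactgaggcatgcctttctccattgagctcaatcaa
Foxo1 member with GATA, TCF7 and IRF, chr3:52366110-52366310: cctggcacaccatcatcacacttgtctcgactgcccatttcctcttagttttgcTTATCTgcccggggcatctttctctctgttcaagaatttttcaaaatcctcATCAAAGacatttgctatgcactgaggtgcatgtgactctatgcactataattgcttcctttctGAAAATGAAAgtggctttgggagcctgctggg
Rps24 member with PU.1 and E-box, chr14:24779681-24779881: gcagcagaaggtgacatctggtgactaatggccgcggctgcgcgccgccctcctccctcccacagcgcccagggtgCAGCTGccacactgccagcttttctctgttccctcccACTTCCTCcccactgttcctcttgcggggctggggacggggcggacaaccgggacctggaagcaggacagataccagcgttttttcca
Bicd1 member with OCT, chr6:149467345-149467545: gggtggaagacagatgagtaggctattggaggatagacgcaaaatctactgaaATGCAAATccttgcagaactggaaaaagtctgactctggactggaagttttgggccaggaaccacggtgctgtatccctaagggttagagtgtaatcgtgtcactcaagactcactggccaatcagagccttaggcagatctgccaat
Atg5lrt and Btg1 desert, CEBP and E-box, chr10:96169038-96169238: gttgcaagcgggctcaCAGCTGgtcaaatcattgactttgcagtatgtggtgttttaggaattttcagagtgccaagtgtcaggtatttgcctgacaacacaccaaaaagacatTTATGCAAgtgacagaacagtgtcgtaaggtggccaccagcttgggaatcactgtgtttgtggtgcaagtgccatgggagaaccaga
Zeb2 member with AP1, chr2:46261107-46261307: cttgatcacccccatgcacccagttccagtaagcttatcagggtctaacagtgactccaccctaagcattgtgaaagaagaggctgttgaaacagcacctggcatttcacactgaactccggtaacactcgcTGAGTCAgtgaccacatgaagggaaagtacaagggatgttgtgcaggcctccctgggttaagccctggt
Cxcr4 member with AP1, chr1:128652458-128652658: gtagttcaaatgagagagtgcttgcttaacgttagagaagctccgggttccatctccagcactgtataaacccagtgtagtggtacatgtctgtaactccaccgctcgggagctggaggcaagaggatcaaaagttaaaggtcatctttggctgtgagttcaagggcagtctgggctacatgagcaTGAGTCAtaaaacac
Runx1 member with TCF7, chr16:92828769-92828969: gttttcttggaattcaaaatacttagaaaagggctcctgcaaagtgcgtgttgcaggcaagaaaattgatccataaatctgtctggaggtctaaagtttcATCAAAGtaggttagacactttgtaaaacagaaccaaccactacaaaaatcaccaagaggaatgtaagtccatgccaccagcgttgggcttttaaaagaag
Chromosome 9 satellite member, chr9:3000866-3001066: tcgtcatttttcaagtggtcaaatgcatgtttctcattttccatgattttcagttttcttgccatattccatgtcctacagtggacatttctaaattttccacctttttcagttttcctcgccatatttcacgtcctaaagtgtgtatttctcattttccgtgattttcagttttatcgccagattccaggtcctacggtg
Chromosome 2 member, capitals marking 20-mers shared with the chromosome 9 member, chr2:98497103-98497303: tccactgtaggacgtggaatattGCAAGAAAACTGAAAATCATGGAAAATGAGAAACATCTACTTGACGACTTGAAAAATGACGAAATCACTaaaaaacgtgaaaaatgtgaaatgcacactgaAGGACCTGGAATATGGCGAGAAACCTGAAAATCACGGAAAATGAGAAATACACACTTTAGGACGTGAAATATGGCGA

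The far regions were not confined to the edge of the rule. The median distance to a protein-coding 5′ end was 237 kb, the longest was 2667 kb, and 575 members lay over 1 Mb away. They fell into 1262 gaps between protein-coding genes, of which 352 held 1 member and 197 held 10 or more, with 3561 members in the latter. Far regions were 18.7% of the regions on chromosomes 3 and 12 and 5.22% on chromosome 11. Although no protein-coding gene covered them, 36.6% lay in the body of a long non-coding RNA gene, against 25.8% of all regions. The 5′ end of such a gene was within 3 kb of 753 members, 11.0% against 18.7% of all regions. Just inside the limit were members near Creb1 (called in control 2 with 11 reads), Zfp644 (8 to 17 reads in all 6 libraries) and Pex5l (18 to 61 reads in all 6). Just outside, at 99.9 kb, were regions near Ccnl1 (called in the control libraries with 29, 21 and 94 reads and in HADA 1 with 14), Dhx35 (control 2, 18 reads) and Rps6ka4 (control 1, 16 reads).

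Far regions and other distal regions had nearly equal call frequencies. Of the members, 28.8% had a peak in all 6 libraries and 22.8% in 1 library. The corresponding values were 28.8% and 21.9% for 40792 other regions more than 3 kb from every protein-coding 5′ end, here called other distal regions, and 38.2% and 18.8% for all regions. By the repeat classes defined below, 25.1% of low-repeat far regions were called in all 6 libraries, against 29.8% of low-repeat other distal regions. For high-copy regions these shares were 33.2% and 27.1%. The share called in all 6 libraries hardly moved with distance and was 27.9%, 29.5%, 29.2% and 29.9% at 100 to 200, 200 to 500, 500 to 1000 and over 1000 kb. Over these bins the share of high-copy members rose from 33.4% to 68.3%. Members called in 1 library numbered 131, 832 and 120 for the control libraries and 124, 155 and 198 for the HADA libraries. Control 2 alone thus held 832 of 1560 such members.

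**Figure D1:**
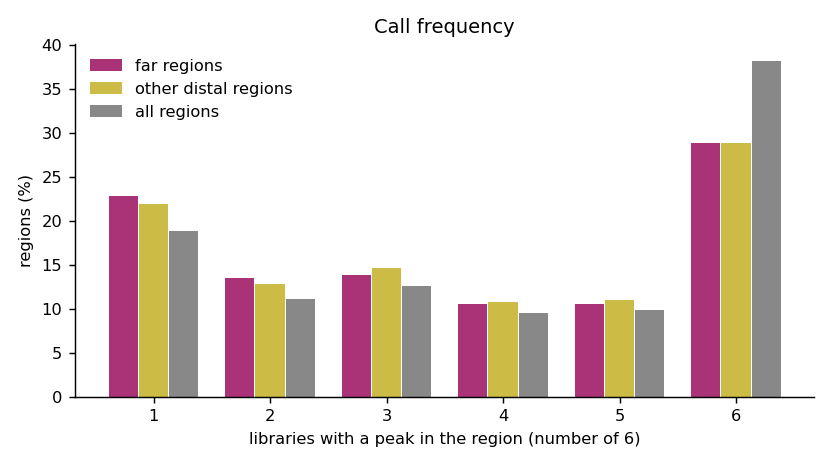
The plot shows the percent of regions (y axis) with a peak in 1 to 6 of the 6 libraries (x axis), for far, other distal and all regions. Far and other distal regions have 28.8% in all 6 libraries, and all regions have 38.2%.

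Peaks in far regions were low. The strength of a peak is given as its summit pileup, the number of reads stacked at the summit. The median summit pileup of far peaks was 17, 21 and 18 reads in the control libraries against 23, 20 and 20 reads in the HADA libraries. For other distal peaks it was 23, 24 and 25 reads in control against 32, 28 and 28 reads in HADA libraries. Far peaks were below other distal peaks in every library, and the 2 groups overlapped for far peaks. On the log2 scale, the median far peak was lower by a mean of −0.43 ± 0.12 (SD, 6 libraries) against other distal peaks and −0.91 ± 0.15 against all other peaks, with far peaks higher in 0 of 6 libraries. The p-value was 0.0312 for each (exact two-sided sign-flip permutation over libraries), the smallest that 6 libraries can give. The fold enrichment over local background did not separate far peaks in this way: its difference in log2 was −0.16 against all other peaks (exact permutation p = 0.0625) and 0.03 against other distal peaks (p = 0.656). Members called in more libraries were taller, with a median over members of the mean pileup of 12 reads for those in 1 library, 16 in 3 and 34.2 in 6.

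Far regions were frequent among the very tallest open regions and infrequent among the next tallest. Of the 10 regions with the highest mean pileup among the 23013 regions called in all 6 libraries, 6 were far regions. Of the 100 tallest, 8 were far, of the 1000 tallest, 13 were far (1.3%), and of all 23013, 1971 were far (8.56%). The pileup of shared far regions ran from 16.7 reads at the 10th percentile to a median of 34.2, 311 at the 99th percentile and 16162 at the highest.

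Several of the tallest members were repeats. The member at chr2:98496614-98497665 had pileups of 14841, 20327 and 17320 in controls against 15297, 13473 and 15716 in HADA libraries. It lies 2349 kb from Lrrc4c, a synaptic adhesion gene, and its neighbour at chr2:98492595-98493172 had 2675 to 3935 reads in the 6 libraries. The member at chr9:3000012-3038212, next to the end of the assembled chromosome 9, had 4980, 7542 and 5763 reads in control against 5029, 4171 and 5370 reads in HADA libraries. Its sequence repeats at a spacing of 234 bp, with 71.3% of bases equal at that spacing, the unit length known for the mouse major satellite of centromeric heterochromatin. The tallest member on chromosome 2 shares 43.0% of its 20-mers with the chromosome 9 member, and another tall member at chr14:3050247-3053975 shares 47.4%. In the printed chromosome 2 sequence, 146 bases lie in shared 20-mers. At the summit, the tallest member was nonetheless counted as single copy, since exact copies of its 50 bases were not found elsewhere. The member at chr17:40153989-40159598 overlaps Rn18s-rs5, an annotated ribosomal RNA gene, with 1688 to 2001 reads in control against 1910 to 2934 in HADA libraries.

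In reads, the groups overlapped at the tallest chromosome 2 member and the chromosome 9 member. After centring on the median shared region they were lower in HADA (limma, Benjamini-Hochberg adjustment): the log2 difference, HADA minus control, was −0.87 ± 0.19 (SE, n = 3 each, adjusted p = 0.0144) at the tallest member and −0.96 ± 0.22 (adjusted p = 0.0149) at the chromosome 9 member. Scaled on the library background instead, these differences were −0.48 and −0.56, and neither passed. The ribosomal member did not pass (−0.35 ± 0.20, adjusted p = 0.185). In all, 8 members share a summit 20-mer with the chromosome 9 member, and 0 matched the mitochondrial genome. The summits with most genomic copies were low peaks. The member at chr14:61994355-61995211, with 205616 copies, had 11 to 15 reads in 4 libraries, and those at chr3:131531349-131531649 (118542 copies) and chr6:51690457-51690771 (83274 copies) had 10 and 12 reads in 1 library each.

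Far regions were rich in repeated sequence. A summit was called repeated when its 50 bases had 2 or more exact copies in the genome, and high copy when at least 50% of the 20-mers within 50 bp of the summit had 10 or more copies. Of the members, 2318 (33.9%) were repeated against 13.2% of all regions, and 3167 (46.3%) were high copy against 16.4% of all regions. Over peaks, the repeated share of far peaks was 36.7%, 42.3% and 41.8% in control against 28.2%, 29% and 32.5% in HADA libraries, and all 3 control libraries lay above all 3 HADA libraries. In every library it was above that of all other peaks, by a mean of 25.7 percentage points (SD 4.10), and above that of other distal peaks by 22.7 points, in 6 of 6 libraries (exact sign-flip permutation p = 0.0312 for each). The bases around far summits were also poorer in G and C, with a mean of the library medians of 46.1% against 51.8% for all other peaks (difference −5.72 points, 0 of 6 libraries higher, exact permutation p = 0.0312). The high-copy share rose with distance, from 33.4% of members at 100 to 200 kb to 48.1%, 65.7% and 68.3% in the following bins.

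The number of peaks in far regions overlapped between the groups, and the shares of high-copy and low-repeat peaks in it did not. The libraries had 4238, 4926 and 3382 far peaks in control against 3852, 3937 and 4452 in HADA (exact permutation p = 0.9). As a share of all peaks these were 10.7%, 12.6% and 10.4% in control against 8.98%, 9.26% and 10.1% in HADA. Every HADA library lay below every control library, 9.45% ± 0.581 against 11.2% ± 1.19 (SD, n = 3 each, exact permutation p = 0.1, the smallest that 3 against 3 libraries can give). High-copy far peaks numbered 2167, 2940 and 1902 in control against 1442, 1522 and 1914 in HADA. Low-repeat far peaks, with a single-copy summit and under 10% of high-copy 20-mers, a class set after values were seen, numbered 1661, 1457 and 1168 in control against 2062, 2054 and 2103 in HADA. The low-repeat counts did not overlap between the groups, and the high-copy counts overlapped by HADA 3 and control 3. High-copy sequence thus made up 51.1%, 59.7% and 56.2% of far peaks in control against 37.4%, 38.7% and 43.0% in HADA libraries. Among low-repeat peaks only, the far share was higher in HADA by 0.735 points (exact permutation p = 0.1), the opposite direction to the whole. Over all peaks of a library, far or not, high-copy sequence made up 15.8%, 21.9% and 16.1% of all control peaks and 10.5%, 11.1% and 12.9% of all HADA peaks.

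**Figure D2:**
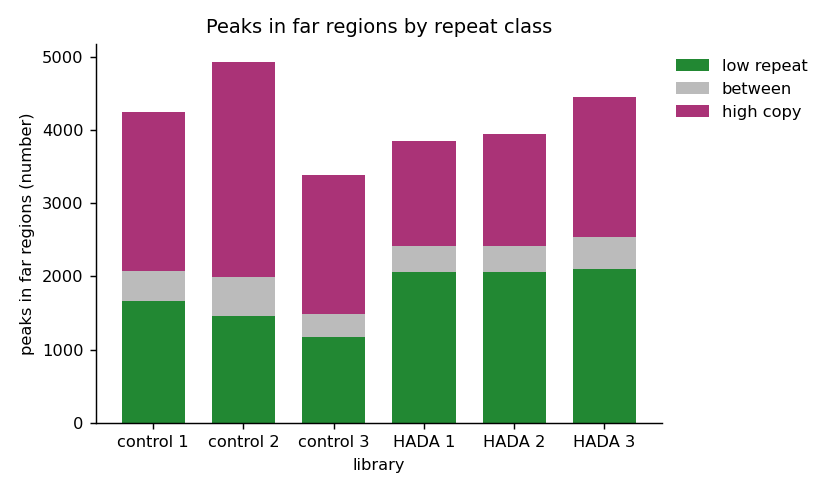
Stacked bars give the number of peaks in far regions (y axis) in each library (x axis), split into low-repeat, intermediate and high-copy summits. Low-repeat peaks number 2054 to 2103 in the HADA libraries and 1168 to 1661 in the control libraries, and control 2 has the most high-copy peaks, 2940.

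Repeated far peaks were most numerous in control 2. Of the 832 members called only in control 2, 71.5% were high copy, against 37.4% and 30.8% of those only in control 1 and control 3 and 10.3% to 16.7% of those only in a HADA library. In the far regions called in all 6 libraries, the median pileup of high-copy members was 27, 54 and 26 reads in control against 21, 20 and 26 reads in HADA libraries. Control 2 was the highest of all 6, and control 3 equalled HADA 3. The part of this library in the group difference is given below by leaving it out.

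Some far regions were called in 1 group only. Called in all 3 HADA libraries and no control library were 435 members, 6.36% against 7.15% of all regions. Called in all 3 control libraries and no HADA library were 161 members, 2.35% against 1.86% of all regions. Of the HADA-only members 376 were low repeat and of the control-only members 56 were. Within low-repeat members the shares were 12.8% and 1.91%, and within high-copy members 0.695% and 2.84%. In other distal regions they were 9.98% and 2.04% of low-repeat and 1.66% and 2.31% of high-copy regions. With the same number of strongest peaks taken from each library the balance turned, to 5.24% HADA-only and 9.26% control-only, against 5.85% and 4.64% of all regions. The counts also depended on single libraries: without control 1 the HADA-only share was 9.94% (11.8% of all regions), and without control 1, control 3, HADA 1 and HADA 3 the control-only share was 4.13%, 6.28%, 3.56% and 5.09%, against 2.85%, 3.54%, 2.98% and 2.78% of all regions.

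The HADA-only members with the highest pileups and single-copy summits lay near Map3k1, Mrpl40, Chd7 and Zfp36l1. Between Map3k1, a kinase of stress signalling, and Ankrd55, the member at chr13:112140664-112141235 had 162, 154 and 154 reads in the HADA libraries, and that at chr13:112136292-112136905 had 166, 131 and 144. The member at chr16:18826037-18826534 had 179, 120 and 134 reads. Its nearest protein-coding 5′ end is that of Mrpl40, a mitochondrial ribosome gene, 130.1 kb away, and the Igl light chain segments, at chr16:18880368-19079609, begin nearer to it. Members near Chd7, a chromatin remodeller, and Zfp36l1, an RNA-binding regulator of lymphocytes, had 93 to 119 and 87 to 100 reads. No control library had a peak at these 5. The tallest control-only member, chr16:95632695-95633252 near the transcription factor gene Ets2, had 87, 81 and 151 reads in the control libraries. The next, chr13:44686177-44686647 near Jarid2, a Polycomb cofactor, had 28, 76 and 49. Those near Spdye4c, Six3 and Macroh2a1 had 17 to 66 reads, and in each of the 3 control 3 was the highest.

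For 1971 members called in all 6 libraries, the summit pileups were compared with limma. Values were log2 pileups centred on the median shared region of each library, and p-values were adjusted over all 23013 shared regions. Higher in HADA were 179 members, 9.08% against 17.5% of all shared regions, and lower were 1177 members, 59.7% against 23.4% of all shared regions. The median log2 difference was −1.11, against −0.04 for all shared regions. These changes are relative to the median shared region, which was itself 0.395 higher in HADA (log2) when pileups were divided by the library background. On that background scale 271 members were higher (13.7%) and 1041 lower (52.8%), against 31.7% and 17.4% of all shared regions, with a median over members of −0.71. With ranks of the fold enrichment in place of pileup, 56 members (2.84%) were higher and 270 (13.7%) lower, against 6.48% and 4.92% of all shared regions. Without 1 HADA library the share called lower fell to between 21.0% and 37.7%, against 10.2% to 15.3% of all shared regions, so the counts depended on each HADA library.

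Most lower calls were in high-copy sequence. Of 1053 high-copy members tested, 819 were lower and 6 higher, with a median log2 difference of −1.24. Of 737 low-repeat members, 259 (35.1%) were lower and 156 (21.2%) higher, with a median of −0.27, or 0.13 on the background scale, where 203 were lower and 232 higher. Outside far regions, 1021 of 1733 high-copy other distal regions were lower (58.9%) and 53 higher. Low-repeat other distal regions were lower in 24.7% and higher in 21.7%. Without control 2, the library with most repeats, the median of the high-copy members was −0.91 and that of all tested members −0.81. Without control 3 the median of the low-repeat members was −0.20.

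**Figure D3:**
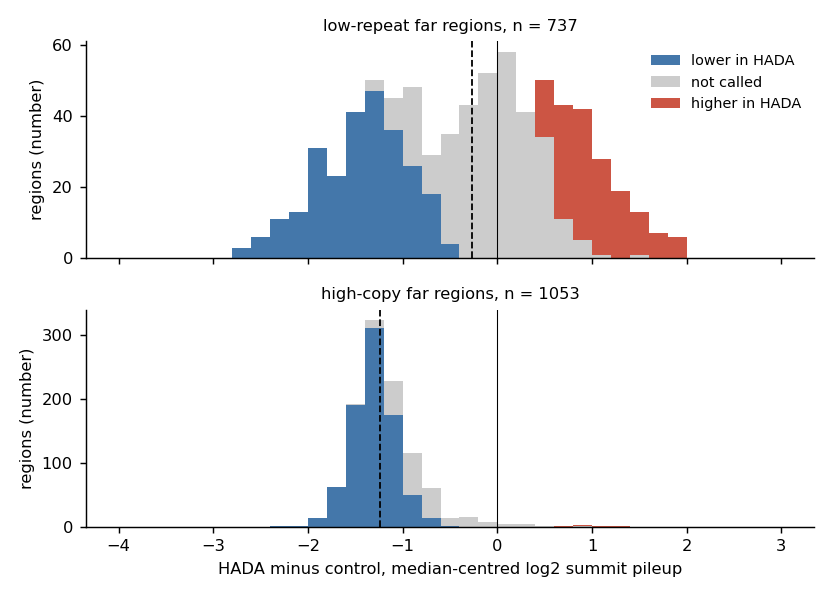
Histograms of the log2 difference in summit pileup, HADA minus control, median-centred (x axis), give the number of regions (y axis) for 737 low-repeat and 1053 high-copy far regions, coloured by the limma call. The dashed line is the median, −0.27 for low-repeat and −1.24 for high-copy regions. Low-repeat regions spread to both sides of 0, and 819 of the high-copy regions are called lower.

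The share of lower calls also rose with distance from genes. It was 51.5%, 62%, 66.6% and 76.2% in the bins from 100 to 200, 200 to 500, 500 to 1000 and over 1000 kb, and the share of higher calls was 12.5%, 9.75%, 3.34% and 0.581%. Among low-repeat members the counts were 87 higher and 152 lower of 428 at 100 to 200 kb, 62 and 72 of 240 at 200 to 500 kb, 7 and 18 of 45 at 500 to 1000 kb, and 0 and 17 of 24 beyond. The share of low-repeat members fell over the same bins, from 58.0% to 15.3%.

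Among single-copy members that passed the test, the higher ones with the smallest p lay near Rps24, Fut8, Bicd1, Rasa1 and Mdfic. The member 243 kb from Rps24, a ribosomal protein gene, at chr14:24779366-24780291, had 29, 25 and 22 reads in control against 115, 109 and 104 in HADA libraries (log2 difference 1.48 ± 0.15, SE, adjusted p = 0.00665, limma), and carries the printed PU.1 and E-box matches. The member near Fut8, a fucosyltransferase, at chr12:77583791-77584558, had 39, 32 and 26 against 141, 122 and 154 reads (1.48 ± 0.17). The member near Bicd1, an adaptor of dynein transport, at chr6:149467224-149468134, had 19, 17 and 16 against 62, 66 and 72 reads (1.30 ± 0.17). In each of the 3 the groups did not overlap. The members near Rasa1, a Ras GTPase activator, and Mdfic had log2 differences of 1.41 and 1.43.

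The lower ones lay near Lcor, Gpr65, Klf7, Adgrl2 and Arrdc4. The member near Lcor, a nuclear receptor corepressor, at chr19:41585492-41586297, had 74, 72 and 79 reads in control against 32, 21 and 22 in HADA libraries (log2 difference −2.25 ± 0.18, adjusted p = 0.00645, limma). The member near Gpr65, a proton-sensing receptor of immune cells, at chr12:98341447-98342191, had 50, 53 and 55 against 14, 12 and 21 reads (−2.43 ± 0.24). The member near Klf7, a Krüppel-like factor, at chr1:64340399-64341136, had 92, 86 and 134 against 34, 33 and 26 reads (−2.37 ± 0.25). All control libraries lay above all HADA libraries at these members. Those near Adgrl2, an adhesion receptor, and Arrdc4, an arrestin-like gene, had −2.19 and −1.97, and their summits hold 19.5% and 25.6% of high-copy 20-mers, so they are single copy but not low repeat.

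The nearest protein-coding gene of each member was matched to 6 gene lists. Of 87 lymphoid genes 24 were nearest to a member, and they had 268 members. Of 72 myeloid genes 8 were nearest, with 54 members. Of 19 genes used across leukocytes 9 were nearest, with 113 members, and of 64 neural and adhesion genes 43 were nearest, with 346 members. Of 13 eosinophil or basophil genes 0 were nearest to a member.

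Far peaks next to lymphoid genes numbered 39.2, 36.8 and 29.8 per 10000 peaks in control against 43.3, 47.3 and 44.9 in HADA libraries. Every HADA library lay above every control library (difference 9.91, exact permutation p = 0.1, adjusted over 6 lists 0.2). The ratio of the group means was 1.28, beside 0.843 for all far peaks. Among low-repeat far peaks it was 1.52 next to lymphoid genes and 1.25 over all of them, a gap that was not tested, and the latter numbered 418, 372 and 359 per 10000 in control against 481, 483 and 477 in HADA and did not overlap either. The difference next to lymphoid genes was 5.02 with equal numbers of strongest peaks, 5.53 beyond 200 kb and 17.6 with either flanking gene counted. Next to myeloid genes they numbered 5.03, 6.13 and 7.07 in control against 6.06, 5.41 and 6.35 in HADA, and the groups overlapped (−0.135, exact permutation p = 0.9), with a positive difference without control 3 (0.362) or HADA 2 (0.129). Next to the genes used across leukocytes they numbered 15.3, 13.3 and 12.3 against 18.4, 20.2 and 18.4 (5.37, exact permutation p = 0.1). Next to neural and adhesion genes they numbered 58.6, 84.0 and 58.1 against 35.4, 38.4 and 42.6 (−28.1, exact permutation p = 0.1), and 261 of those 346 members were high copy. Per 10000 single-copy peaks that difference was −18.3, per 10000 low-repeat peaks −3.91 and with either flanking gene counted −51.1. None of these comparisons could pass 0.05 with 3 libraries a group.

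**Figure D4:**
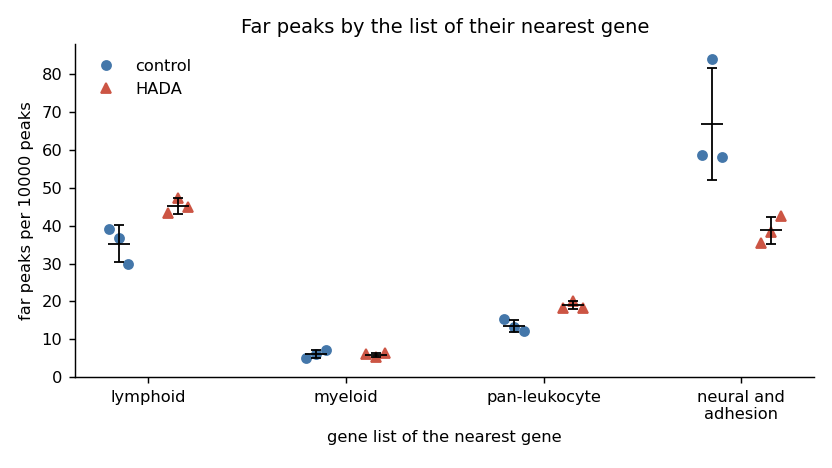
The plot gives far peaks per 10000 peaks of a library (y axis) whose nearest protein-coding gene is in 1 of 4 gene lists (x axis). Points are libraries, long bars the group mean and error bars the SD (n = 3). HADA libraries lie above control libraries for lymphoid and pan-leukocyte genes and below them for neural and adhesion genes, and the groups overlap for myeloid genes.

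Among members tested, 17 of 68 next to lymphoid genes were higher in HADA (25%) and 24 lower (35.3%), against 17.5% and 23.4% of all shared regions and 9.08% and 59.7% of all members tested. Restricted to low-repeat members the counts were 17 higher and 8 lower of 49, beside 156 and 259 of all 737 low-repeat members. By ranks of the fold the balance turned, with 2 higher and 3 lower of these 49, beside 42 and 52 of the 737. For myeloid genes, 1 of 9 was higher (11.1%) and 6 lower (66.7%), and among low-repeat members 1 and 5 of 8. Of these 9 members 6 lay next to 1 gene, Zeb2, and they held 5 of the lower calls. For the genes used across leukocytes, 7 of 27 were higher (25.9%) and 8 lower (29.6%), and among low-repeat members 6 and 7 of 20. For neural and adhesion genes, 0 of 117 were higher and 87 lower (74.4%), and among low-repeat members 0 and 9 of 13. Low-repeat other distal regions were 43.4% higher and 6.57% lower next to lymphoid genes, and 6.25% higher and 58.8% lower next to myeloid genes. Over the same libraries the summed B cell marker level was 10.9 to 11.5 in HADA and 0.78 to 4.76 in control, higher at 6 of 6 genes, and the summed neutrophil level was 1.39 to 2.05 against 3.27 to 10.5. Of the 7 neutrophil genes 4 were lower in every HADA library, S100a8 and Ly6g had a peak in control 3 alone, and Mmp9 was higher in every HADA library (0.479 to 0.684 against 0 to 0.34). The part of these marker changes in the neighbour results was not tested.

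Next to Foxo1, a transcription factor of lymphocyte development and homing, 20 members were called, 8 of them in all 6 libraries, and of these 6 were higher and 0 lower. Of all shared regions 17.5% were higher and 23.4% lower, and of all low-repeat members tested 21.2% and 35.1%. The member at chr3:52303352-52305546, 128 kb from Foxo1, had 86, 72 and 31 reads in control against 267, 255 and 269 in HADA libraries (log2 difference 1.55 ± 0.32, adjusted p = 0.0120, limma). The member at chr3:52351182-52352176, whose AP1 and E-box matches are printed above, had 76, 61 and 17 against 282, 227 and 254 reads (1.92 ± 0.46, adjusted p = 0.0172). The member at chr3:52365568-52366597, with GATA, TCF7 and IRF matches, had 62, 49 and 27 against 182, 180 and 178 reads (1.41 ± 0.26, adjusted p = 0.0102). Control 3 was the lowest library at each of the 3, and no HADA library overlapped a control library. None of the 6 passed by ranks of the fold enrichment. Without HADA 2, 4 of them no longer passed, and without HADA 3, 3 of them.

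The tallest members of other lymphoid genes moved in both directions. Next to Satb1, a chromatin organiser of T cells, the member at chr17:52469273-52470354 had 100, 73 and 50 reads in control against 250, 202 and 213 in HADA libraries (0.99 ± 0.21, adjusted p = 0.0136, limma). Next to Bcl6, a repressor of germinal centre B cells, the member at chr16:23969833-23970979 had 59, 52 and 37 against 145, 128 and 132 reads (0.84 ± 0.17). The tallest members of Bcl11a, a B lymphoid factor, and Sox4, a factor of early lymphocytes, had 0.65 ± 0.18 and 0.87 ± 0.27. At all 4 the HADA libraries lay above the control libraries in reads. The tallest members of Id2, a repressor needed by innate lymphocytes, and Lef1, a T cell factor, did not pass, with 54, 41 and 9 against 120, 134 and 125 reads and 44, 35 and 20 against 87, 53 and 64. On the background scale, where 31.7% of all shared regions were higher, both passed (limma, 1.97, adjusted p = 3.92e-09, and 0.84, adjusted p = 0.0137). By ranks of the fold neither passed. The tallest members of Ets1 and Ebf1, factors of lymphocytes and of B cells, had no peak in control 3 and were not tested. They had 42 and 46 reads in the other control libraries against 148 to 152 in HADA, and 30 and 11 against 84 to 112. Of the members that could be tested, 1 of 7 next to Ets1 was higher and 2 lower, beside 17.5% and 23.4% of all shared regions. The 1 next to Ebf1, with 48 copies of its summit, was lower (−1.77, adjusted p = 0.0104, limma). The tallest member of Rora, a nuclear receptor of innate lymphocytes, was also lower (−1.20, adjusted p = 0.0261), with 57 copies of its summit, and so was that of Rag2, of the recombinase that joins antigen receptor segments (−1.27, adjusted p = 0.0221, limma). Of 9 members tested next to Rag2, 9 were lower, and 21 of its 24 members were high copy, beside 77.8% lower of all high-copy members tested.

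The desert between Atg5lrt and Btg1 held 29 members, of which 10 were tested, and 1 was higher and 6 lower. These counts are near the shares over all members tested, 9.08% higher and 59.7% lower. The member at chr10:96236328-96237140 had 81, 65 and 55 reads in control against 165, 139 and 181 in HADA libraries (0.64 ± 0.17, adjusted p = 0.0249, limma). The 3 others nearer Btg1, an antiproliferative gene of lymphocytes, were lower: chr10:96301545-96302906 had 49, 54 and 88 against 39, 23 and 23 reads (−1.81 ± 0.31), and those at chr10:96332046-96333743 and chr10:96337899-96338684 had −1.71 ± 0.38 and −2.14 ± 0.33. Those at chr10:96134390-96135047 and chr10:96173770-96174748 were lower too (−1.58 and −1.91). The member at chr10:96168281-96169723, with the printed CEBP and E-box matches, had 354, 340 and 605 reads in control against 393, 274 and 292 in HADA libraries, a raw overlap with a centred difference of −1.05 ± 0.28 (adjusted p = 0.0243) that did not pass on the background scale (−0.65, adjusted p = 0.0584). Control 3 was the highest library at each of the 6 lower members and the lowest at the member that rose.

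Next to Zeb2, a transcription factor of monocytes and mature lymphocytes, 27 members were called and 6 were tested, of which 5 were lower and 0 higher, beside 59.7% lower and 9.08% higher of all members tested. One of the 5 had 493 copies of its summit. At chr2:46260716-46261948, 1254 kb from Zeb2, the pileups were 113, 103 and 220 in control against 33, 31 and 31 in HADA libraries (−2.75 ± 0.33, adjusted p = 0.00678, limma). At chr2:45169183-45170542, with PU.1 and CEBP matches, they were 121, 100 and 226 against 149, 84 and 78 (−1.14 ± 0.37, adjusted p = 0.0409). The groups did not overlap at the first and overlapped at the second, and control 3 was the highest at both. The second no longer passed without HADA 2 or without HADA 3. The tallest member of Klf4, a monocyte factor, moved the other way, with 32, 29 and 16 against 89, 91 and 88 reads (1.22 ± 0.24, adjusted p = 0.0110, limma). The other member tested next to Klf4, at chr4:55650956-55652251, was lower, with 48, 55 and 35 against 42, 34 and 49 reads that overlapped (−0.78 ± 0.21, adjusted p = 0.0229, limma), and did not pass on the background scale (−0.38, adjusted p = 0.282). The tallest members of Tlr4, the endotoxin receptor (18 to 53 reads in control against 13 to 32 in HADA), and F13a1 (called in 4 libraries, 2471 copies of its summit) did not give a call.

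Genes used across leukocytes held members of both directions. Next to Cxcr4, the chemokine receptor that holds leukocytes in the marrow, the member at chr1:128652127-128653071, with the printed AP1 match, had 194, 174 and 394 reads in control against 145, 81 and 71 in HADA libraries (−1.97 ± 0.39, adjusted p = 0.0111, limma). At chr1:128639935-128641284, with a PU.1 match, the values were 331, 281 and 529 against 358, 178 and 183 (−1.33 ± 0.33), with overlap by HADA 1. At chr1:128694397-128695321 they were 74, 55 and 29 against 185, 166 and 199 (1.26 ± 0.28, adjusted p = 0.0148). Within this 1 desert, 3 members were thus lower and 1 higher of 8 tested, beside 23.4% lower and 17.5% higher of all shared regions and 59.7% and 9.08% of all members tested. Next to Runx1, a factor of blood stem cells and most leukocytes, the member at chr16:92828424-92829269 had 90, 75 and 150 against 39, 35 and 25 reads (−2.27 ± 0.32, adjusted p = 0.0082, limma), and its neighbour at chr16:92825315-92826010 had −1.55 ± 0.30.

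Next to Myc, a driver of cell growth, 7 of 38 members were called in all 6 libraries. The tallest, chr15:62041007-62042165, had 159, 139 and 77 reads in control against 408, 335 and 362 in HADA libraries (0.98 ± 0.23, adjusted p = 0.0169, limma). The member at chr15:62052924-62053870 had 49, 44 and 15 against 127, 112 and 141 reads (1.34 ± 0.38), and that at chr15:61412371-61413243, on the other side of Myc, had 52, 56 and 22 against 139, 126 and 130 (1.08 ± 0.30). The groups did not overlap at the 3. A member with a high-copy summit, 332 kb from Myc, had 21, 55 and 23 against 16, 14 and 31 reads and a difference of −1.29 ± 0.44 that did not pass without control 2, control 3, HADA 1 or HADA 2. The tallest members of Cd47, the signal that protects cells from phagocytes (a summit with 3 copies), and Mef2c, a factor of B and myeloid cells, had 1.09 ± 0.19 and 1.32 ± 0.23, and that of Meis1, a stem cell factor, had −1.59 ± 0.26.

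**Figure D5:**
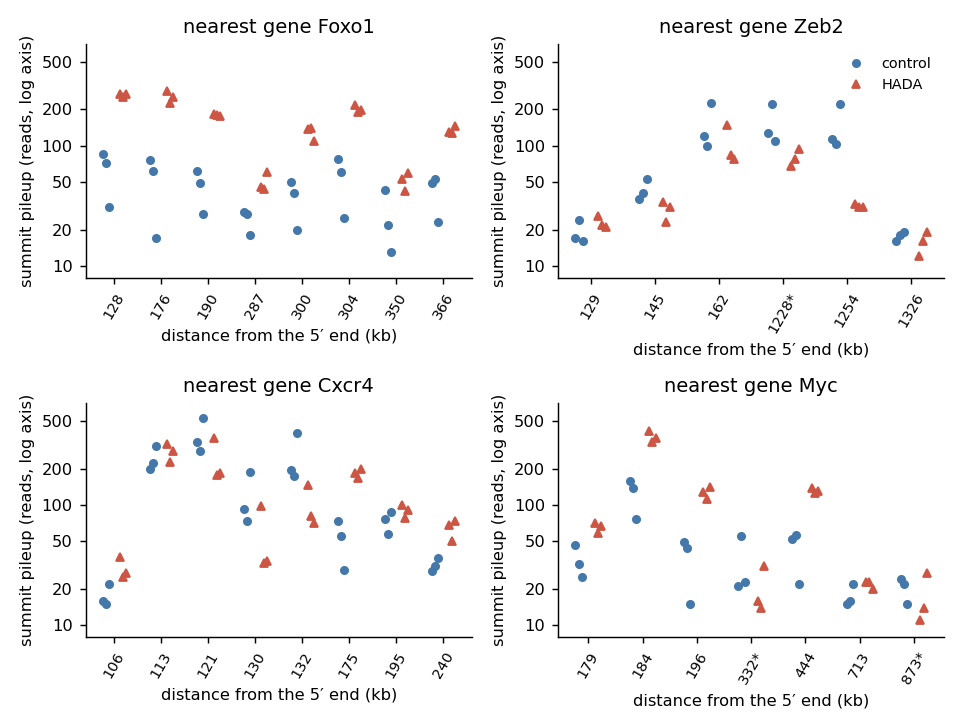
Each panel gives the summit pileup in reads (y axis, log scale) of the members called in all 6 libraries whose nearest gene is Foxo1, Zeb2, Cxcr4 or Myc, against their distance from its 5′ end in kb (x axis, not to scale). Circles are control and triangles HADA libraries, in replicate order, and an asterisk marks a high-copy summit. HADA values lie above control values at 6 called Foxo1 members, and below them at the Zeb2 member 1254 kb away.

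Many members lay within the antigen receptor loci, whose gene segments are joined in lymphocytes and are not annotated as protein-coding genes. By the span of its gene segments, the Igk light chain locus held 104 members, of which 31, 25 and 12 were called in the control libraries against 66, 59 and 74 in the HADA libraries. The groups did not overlap, and 22 of the members were HADA-only against 1 control-only, beside 7.15% and 1.86% of all regions. Over all peaks every HADA library also had more calls than every control library, 42500 to 44102 against 32533 to 39769, as it had over low-repeat far peaks, 2054 to 2103 against 1168 to 1661. The Igh heavy chain locus held 82 members, called 48, 37 and 33 times in control against 56, 58 and 60 times in HADA. The span of Tra and Trd held 56 members, called 28, 22 and 15 against 30, 32 and 41 times. Igl had 13 members, Trb 4 and Trg 5. Few were shared by all libraries: of 5 tested in Igk, 0 were higher and 3 lower, and of 18 in Igh, 0 were higher and 6 lower, while 2 of 2 in Igl and 2 of 5 in Tra and Trd were higher and 0 lower, beside 17.5% higher and 23.4% lower of all shared regions. Of the Igk members 47 had a repeated summit. B cell markers differed in the same direction, as given above, and their part was not tested.

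Beyond these loci, the desert between Ebf1, the factor that sets the B cell lineage, and Clint1 held 31 members, with 10, 8 and 4 called in control against 23, 22 and 22 in HADA libraries and 10 of them HADA-only. The desert between Foxo1 and Cog6 held 40 members (26, 20 and 12 against 32, 34 and 34 called), and that between Myc and Gsdmc 42 (18, 18 and 13 against 27, 33 and 29). The desert between Zeb2 and Acvr2a held 42 members, with 21, 22 and 23 called in control against 24, 23 and 25 in HADA. The gap between Ube3a and Gm38393 held 42, of which 38 were high copy, with 21, 42 and 20 against 7, 5 and 15 called. Each HADA library thus had more calls than each control library in the Ebf1, Foxo1 and Myc deserts, as over all peaks and over low-repeat far peaks. Each had fewer calls in the Ube3a gap, beside 1442, 1522 and 1914 high-copy far peaks in HADA against 2167, 2940 and 1902 in control over all gaps, and the groups met at 23 calls in the Zeb2 desert. Of the HADA-only members 24 lay next to lymphoid genes (8.96% of their members), 6 next to the myeloid genes Klf4 and Zeb2 (11.1%), 13 next to genes used across leukocytes (11.5%) and 0 next to neural and adhesion genes, against 6.36% of all members and 7.15% of all regions. Among low-repeat members the first 3 shares were 11.2%, 16.2% and 13.5%, against 12.8% of all low-repeat members. Of the control-only members the counts were 4, 2, 0 and 10 (1.49%, 3.7%, 0% and 2.89%), against 2.35% of all members and 1.86% of all regions.

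Motif matches within 100 bp of the summit were counted over peaks. CTCF, the insulator protein of loop ends, matched in a mean of 0.246% of far peaks (0.0812% to 0.467%) against 0.739% of all other peaks and 0.918% of other distal peaks, and in 0.871% of all regions. It was lower in far peaks in 6 of 6 libraries, by −0.493 points against all other peaks (exact sign-flip permutation, p adjusted over 12 motifs 0.0417) and −0.672 against other distal peaks (adjusted p = 0.0469). ETS (0.343% of all regions), PU.1 (4.23%), AP1 (3.94%), EBF (0.736%) and E-box (12.5%) were also less frequent in far peaks than in all other peaks, by −0.371, −1.13, −1.02, −0.26 and −1.44 points. GATA (6.94%), TCF7 (2.46%) and OCT (1.61%) were more frequent, by 1.89, 0.39 and 1.36 points, each in 6 of 6 libraries with an adjusted p of 0.0417 by the same exact permutation. RUNX (2.78%), CEBP (1.45%) and IRF (2.99%) did not pass. Against other distal peaks, RUNX, ETS, PU.1, AP1, EBF and E-box were less frequent by −0.842, −0.0899, −2.17, −1.9, −0.207 and −2.14 points and OCT more frequent by 1.04 points, each in 6 of 6 libraries (adjusted p = 0.0469, exact sign-flip permutation). GATA (0.34 points, 5 of 6 libraries higher, adjusted p = 0.075 by the same exact permutation), TCF7 (−0.147 points, 2 of 6 higher), CEBP (−0.393) and IRF (−0.375) did not pass against other distal peaks. In windows of the same length centred 1 kb to the right of the same far summits, GATA matched in 10.9% (mean of control) and 11.1% (mean of HADA) against 8.03% and 8.15% at the summits, TCF7 in 3.53% and 3.5% against 2.35% and 2.86%, and OCT in 2.81% and 2.54% against 2.49% and 3.04%. The group means of GATA and TCF7 were thus higher beside the far summits than at them, a difference that was not tested. PU.1 matched in 0.757% and 0.878% there against 2.96% and 3.93% at the summits.

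In low-repeat far peaks several of these turned around. RUNX matched in 4.72% against 2.86% of low-repeat peaks elsewhere (1.86 points), and PU.1, AP1 and CEBP were more frequent by 1.81, 1.88 and 0.833 points. GATA, TCF7, OCT and IRF were also more frequent, and CTCF (−0.354 points) and ETS (−0.34) less frequent, each with an adjusted p of 0.0375 (exact sign-flip permutation, 6 of 6 libraries in the same direction). Against low-repeat other distal peaks, where promoters are left out, the adjusted p was 0.0536, with RUNX 0.758, AP1 0.547, CEBP 0.406, GATA 1.82 and TCF7 0.628 points higher and CTCF −0.617 and E-box −1.04 points lower, each in 6 of 6 libraries. PU.1 (0.285 points), OCT (0.364), IRF (0.843), EBF (0.164) and ETS (−0.0155) did not keep 1 direction in the 6 libraries there. Between the groups, 6 of 12 motifs did not overlap in low-repeat far peaks (exact permutation p = 0.1, adjusted over 12 motifs 0.2), against 9 of 12 in low-repeat peaks elsewhere and 7 of 12 in low-repeat other distal peaks. OCT matched in 1.57%, 1.44% and 1.46% of low-repeat far peaks in control against 2.62%, 2.39% and 2.90% in HADA libraries. EBF matched in 0.783%, 0.824% and 0.514% against 1.21%, 1.07% and 1.28%, and CTCF in 0.361%, 0.206% and 0.257% against 0.824%, 0.536% and 0.618%. These shares rest on few matches. Of the 2936 low-repeat members, 66 had an OCT, 32 an EBF and 22 a CTCF match at the tallest summit. These 3 motifs were also higher in every HADA library in low-repeat peaks elsewhere, by 0.466 points for OCT, 0.194 for EBF and 0.525 for CTCF. Lower in HADA were CEBP, with 2.71%, 2.68% and 2.65% against 2.18%, 2.29% and 2.09%, PU.1, with 6.74%, 7.89% and 6.93% against 6.45%, 6.23% and 6.23%, and GATA, with 10.8%, 10.6% and 11.4% against 8.87%, 8.86% and 10.2%. In low-repeat peaks elsewhere CEBP was lower too (−0.374 points), GATA was higher (0.36 points) and PU.1 overlapped, and the differences between far and other peaks in these group values were not tested. Over all far peaks, 9 of the 12 motifs did not overlap, and each of the 9 was higher in HADA (exact permutation p = 0.1, adjusted 0.133). Over all other peaks 11 of 12 did not overlap, 9 of them higher and 2 lower in HADA, so such a split was no less frequent outside far regions. CEBP and PU.1 were among the 9 higher over all far peaks, with CEBP at 1.34%, 1.12% and 1.15% in control against 1.35%, 1.55% and 1.35% in HADA libraries, so their direction turned with the repeat class. In the windows 1 kb away AP1 (0.56 points, against 0.67 at the summits) and EBF (0.0894 points) were also higher in every HADA library, and OCT was lower in every HADA library (−0.275 points). A match here is a description of sequence and not a binding site.

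The members farthest from any protein-coding 5′ end and called in all 6 libraries also included repeats. The member 2667 kb from Pcdh20, at chr14:91375242-91376514, had 397 copies of its summit and 20, 47 and 17 reads in control against 21, 21 and 19 in HADA libraries. That 2651 kb from Rag2, at chr2:98802610-98804496, had a single-copy summit and 46, 92 and 54 against 30, 43 and 48 reads (−1.27 ± 0.33, adjusted p = 0.0221, limma). That 2483 kb from Cntnap5b, at chr1:102182947-102184227, had 515 copies and 37, 61 and 42 against 16, 30 and 27 reads (−1.60 ± 0.34, adjusted p = 0.0129). At each of the 3, control 2 was the highest library.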

How the data were processed

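Per the labels, the authors used Trimmomatic, Bowtie2 with the GRCm39 genome, Picard and MACS2, whose versions, along with MACS2 options, any Tn5 shift and the treatment of multiply aligned reads, are not given in the sources used here. Peaks were called per library. The deposited lists hold a whole-number score, a fold enrichment over local background (a ratio), and −log10 p and q values per peak, all relative to that library. The score was not used. From the deposited fold and −log10 p-value of each peak, its summit pileup in whole reads and its background were worked out, and this pair gave back the deposited fold and p-value at 100% of peaks in every list. Total reads were not analysed here, so depth is known only as the background pileup.

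Peaks on chromosomes 1 to 19 that shared 1 bp were merged. Distances, nearest genes and sequences came from the GRCm39 genome and its GENCODE annotation, and copies of summit sequence were exact matches in either orientation. Groups and replicate numbers came from the labels. Shared regions were tested with limma 3.58.1 in R 4.3.3, with Benjamini-Hochberg adjustment at 0.05, and single values with two-sided exact permutation tests (Python 3.11.15, numpy 2.4.6, scipy 1.17.1). The limma fit and the pileup solver were checked on simulated data, and the copy counts of some summits against a plain search of the genome. Regions named with values were the tallest, those with the smallest p, the tallest of 1 group only, those with most copies, the tallest next to each listed gene, the farthest, and those beside the 100 kb limit. The other members of the deserts described, the tallest members of any copy number and the low-repeat and high-copy classes were added after values were seen. The members and gene lists were chosen with earlier results of these data known. Some members and 1 of the 6 gene lists of neighbours are not reported here. Alternatives are given in the closing section. Whether replicate numbers pair the libraries could not be settled. Same-numbered libraries had correlations of −0.101, 0.089 and −0.375 between their deviations from the group means. Differently numbered libraries ran from −0.472 to 0.487, and 3 libraries a group are too few to decide.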

Additional observations from a re-analysis of the deposited data

How the results depend on the processing

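The smallest exact permutation p is 0.1 between groups and 0.0625 over 5 libraries. An absent call of a low far peak was not told apart from a lack of depth. The alternatives were a distance of 200 kb, antigen receptor segments counted as genes, a stricter q, equal numbers of strongest peaks, a 100 bp overlap, other scalings and single-copy or low-repeat summits, the last chosen after seeing the data. The cause of the changes below was not tested, and leaving out a library also left fewer samples.

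Leaving out 1 library in turn moved the share called lower between 21.0% and 62.4%, the share called higher between 2.27% and 12.7%, the HADA-only share between 6.65% and 9.94% and the control-only share between 3.14% and 6.28%. Leaving out 1 library kept the far share of peaks between −2.17 and −1.08 points, the repeat difference between 24.5 and 26.6 points, the pileup difference between −0.969 and −0.883 against all other and −0.471 and −0.413 against other distal peaks, and CTCF between −0.531 and −0.451 points. The last 4 did not pass with 5 libraries. The myeloid difference ran from −0.658 to 0.362, and it turned positive without control 3 (0.362), without HADA 2 (0.129), and with single-copy (0.419) or low-repeat summits (0.377). RUNX ran from −0.087 to 0.0103, positive without control 2, and IRF from −0.0394 to 0.202, negative without HADA 2.

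Low-repeat summits turned the far share to 0.735 and gave 12.8% HADA-only, 21.2% higher and 35.1% lower. They turned RUNX to 1.86, PU.1 to 1.81, AP1 to 1.88, CEBP to 0.833, EBF to 0.134 and E-box to 0.115 points. Single-copy summits gave a far share of −0.516 points (exact permutation p = 0.5), 14.1% higher and turned RUNX to 0.753, PU.1 to 0.0652, AP1 to 0.0315 and CEBP to 0.285. Ranks of the fold gave 2.84% higher and 13.7% lower (6.48% and 4.92% of all shared regions), and background scaling 13.7% higher. The fold in place of pileup gave −0.164 and 0.0266. Equal numbers of peaks gave a far share of −2.84 points, 5.24% HADA-only and 9.26% control-only, CTCF −0.388 and RUNX 0.264. A −log10 q of at least 5 gave CTCF −0.426 and RUNX 0.25. A 50 bp window gave CTCF −0.149 and IRF −0.0154, and 200 kb IRF −0.203. None of the 9 motifs called against all other peaks passed with equal numbers of peaks, the stricter q or the 50 bp window. CTCF, ETS, PU.1, GATA and OCT had an adjusted p of 0.0536 in each (exact permutation), and AP1, EBF, TCF7 and E-box 0.0536 to 0.25. Each of the 9 kept its direction there.

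Of 69 named regions called, 59 kept their call under background scaling and 22 under ranks of the fold, where 6 changed sign, among them Mkln1 (−0.1), Cxcr4 (0.1), Gm8797 (0.39), Foxo1 (−0.15) and Dcn (−0.12). Without HADA 1, HADA 2 or HADA 3, 23, 40 and 23 of them did not pass. With the replicate number as a replicate block, 7.1% of members were higher and 62.3% lower (12% and 22.4% of all shared regions), 63 of the 69 kept their call, and the far share differed by −1.76 points (exact sign-flip permutation p = 0.25, the smallest that 3 pairs can give).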
